A study of Mus musculus with 21 samples.

Results

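The mouse immunoglobulin heavy chain locus on chromosome 12 holds its variable (V) genes in families named VH1 to VH16 by sequence similarity, and most families lie outside VH1. The genes described here are those whose symbols begin with Ighv and a family number other than 1, without Ighv11-2 and Ighv12-3, the V genes of B-1 cells that bind phosphatidylcholine. This rule uses names only and took 89 of the 183 Ighv genes in the files, against 92 genes of VH1. Of the 89 members, 58 are annotated as functional V genes and 31 as pseudogenes. RNA of B cells sorted from the peritoneal cavity of C57BL/6 mice was sequenced in 21 libraries. Mice were wildtype (WT) or had a global knockout of TET2 (TET2-KO), an enzyme that oxidizes methylated cytosine in DNA, from a targeted conditional allele that allows the catalytic region to be deleted. B-1a cells, gated as CD5+ with low IgD, CD23 and B220, gave 4 WT and 4 TET2-KO libraries, B-1b cells (the same gate, CD5-) gave 4 WT and 3, and B-2 cells gave 2 WT, numbered 1 and 4, and 4 TET2-KO. Mice received no treatment in the labels, which do not give an age and do not say that each library came from a separate mouse, so p-values measure the spread between these libraries.

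A heavy chain gene is assembled by joining 1 V, 1 D and 1 J gene, guided by a recombination signal, a heptamer and a nonamer with a spacer between them, that follows each V gene. A B cell transcribes its joined V gene from that gene's own promoter, so the V gene counts of a sorted population record which V genes its cells carry and how strongly they are transcribed. B-1 cells arise largely before and soon after birth and carry a restricted set of V genes for natural IgM, while B-2 cells use the locus more broadly.

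The locus is read on the minus strand, so a lower position is nearer to the D genes. In GRCm39 the members spanned chr12:113536547-115821921, which is 2.29 Mb, from Ighv5-1 nearest the D genes to Ighv8-16 farthest from them. The 45 members nearest the D genes ended at 114057978 and the other 44 began at 114070879. VH1 genes (114315325 to 115973713) lay between and beyond the distal members. VH5 was the family with the most members, with 10 functional genes and 11 pseudogenes, followed by VH8 with 9 and 7, and VH2 with 9 and 2.

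The recombination signals of the genes to which the results below refer are shown because they are what makes these V genes joinable, and because the members differed in them. Each was read from GRCm39 directly after the end of the annotated gene, on the minus strand and from 5′ to 3′. Capitals mark the first 7 and last 9 bases, the places of heptamer and nonamer, whether or not the letters match. Spacers of 22, 23 and 24 bases were tried, and the one whose last 9 bases best matched the nonamer ACAAAAACC was kept. They stand in the order of the locus, the gene nearest the D genes first.
Ighv5-2 (chr12:113542085-113542123): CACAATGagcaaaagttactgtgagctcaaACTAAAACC
Ighv5-17 (chr12:113822730-113822768): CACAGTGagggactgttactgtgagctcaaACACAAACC
Ighv7-1 (chr12:113859989-113860027): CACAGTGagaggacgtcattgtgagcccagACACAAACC
Ighv14-1 (chr12:113895535-113895572): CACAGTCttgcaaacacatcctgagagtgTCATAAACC
Ighv14-2 (chr12:113958051-113958088): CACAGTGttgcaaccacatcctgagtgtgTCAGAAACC
Ighv9-3 (chr12:114104274-114104311): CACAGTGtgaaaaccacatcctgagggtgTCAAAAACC
Ighv6-3 (chr12:114355293-114355331): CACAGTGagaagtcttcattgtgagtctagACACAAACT
Ighv10-1 (chr12:114442586-114442624): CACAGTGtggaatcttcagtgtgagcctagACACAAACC
Ighv8-8 (chr12:115257643-115257681): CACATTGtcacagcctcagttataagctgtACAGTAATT
Ighv14-3 had the same signal as Ighv14-2, and Ighv10-3 the same as Ighv10-1. The heptamer CACAGTG, looked for at this place on the gene's own strand, was present in all 7 letters in 34 of the 58 functional members (58.6%), in 5 of the 31 pseudogenes, and in 47 of 53 functional VH1 genes. None of the 9 functional VH8 members held it. The nonamer ACAAAAACC, in at least 7 of 9 letters, was present in 41 of 58 functional members (70.7%). It was present in 9 of 31 pseudogenes, in 33 of 53 functional VH1 genes and in 0 of 9 functional VH8 members.

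The octamer ATGCAAAT, the promoter element of immunoglobulin genes that Oct proteins bind, was looked for on both strands in the 250 bases before each gene. It was present in 45 of 58 functional members (77.6%), in 9 of 9 functional VH8 members and in 0 of 9 functional VH2 members. Of 53 functional VH1 genes, 44 held it. Of 2319 other genes on chromosome 12, 1.68% held it. The windows around it in Ighv6-3 and Ighv7-1 are shown, with the octamer in capitals, since these genes are described in B-1b libraries below.
Ighv6-3 (chr12:114355889-114355936): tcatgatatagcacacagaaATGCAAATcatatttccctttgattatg
Ighv7-1 (chr12:113860656-113860703): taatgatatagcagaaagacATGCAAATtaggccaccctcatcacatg

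Libraries held 9667187 to 24152518 counts (median 17425219), of which 9243 to 61893 fell on Ighv genes and 1332 to 31570 on the members. At these depths the 95% Wilson interval reached at most 1.01 percentage points to either side of a library's member share and 0.42 points for a gene named below, and it covers counting error only. Several WT libraries carried markers that went against their labels. Cd5, the marker that separates B-1a from B-1b cells, was at 5.15 and 1.64 CPM (counts scaled to library size) in the B-1a WT 1 and 2 libraries against 19.7 and 22.7 in WT 3 and 4, and at 18.7 in B-1b WT 1 against 2.09 to 5.09 in the other B-1b libraries. Fcer2a (CD23), a B-2 marker, was at 815 CPM in B-1a WT 1, 598 in B-1b WT 2 and 24.2 in B-2 WT 1, against 480 to 833 in TET2-KO B-2 libraries. TET2-KO libraries carried Cd5 and Fcer2a as labelled. The genotype comparisons are therefore given also without WT 1 and WT 2. The summed level of 6 macrophage markers, of which Lyz2 made up most, was 3902 to 28027 CPM and overlapped between genotypes in every subset, and its part in the results was not tested. Tet2 counts (WT 8.45 to 27.2 CPM, TET2-KO 12.6 to 30.1) include exons outside the deletion and check nothing.

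Few of the 89 members carried most of the counts. In 11 members every library was at 0, 38 members (30 of them pseudogenes) had at most 30 counts in every library, and 17 had at least 10 in every library. Between 29 members (B-1a TET2-KO 4) and 65 members (B-2 TET2-KO 1) were detected per library. Scaled to gene length and averaged over the 21 libraries, Ighv6-3 ranked first with 6.54% of Ighv counts per length, followed by Ighv5-17 (3.59%), Ighv9-3 (3.00%), Ighv6-6 (2.65%), Ighv3-6 (2.57%), Ighv7-3 (2.34%) and Ighv10-1 (2.11%). Ighv14-2 (1.36%), Ighv8-12 (1.23%) and Ighv10-3 (1.17%) completed the 10 highest. Ighv5-2, also called 81X, the functional member nearest the D genes and known for its frequent rearrangement in fetal life, stood at 0.385% on the same scale. Ighv5-1 and Ighv8-16, the members nearest to and farthest from the D genes, reached no more than 0.0433% and 0.00325% of Ighv counts in any library.

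The first question was whether B-1a cells of TET2-KO mice used the V genes outside VH1 as WT cells did. As a percent of all Ighv counts, the members made up 44.2, 59.2, 28.5 and 36.5 in B-1a WT libraries 1 to 4. In B-1a TET2-KO libraries 1 to 4 they made up 14.7, 13.0, 29.0 and 9.74. All TET2-KO values but that of library 3 lay below every WT value. The mean was 42.1% ± 13.1 (SD, n = 4) in WT and 16.6% ± 8.53 (SD, n = 4) in TET2-KO libraries, a difference of -25.5 points, or -15.9 points without WT 1 and WT 2. In bulk RNA, fewer cells with a V gene and less RNA per cell cannot be told apart. In CPM the members summed to 1023, 1668, 720 and 844 in WT and to 328, 370, 549 and 75.8 in TET2-KO libraries, which did not overlap.

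A share of Ighv counts depends on the other Ighv genes. Ighv11-2 and Ighv12-3 together held 30.3, 76.2, 27.2 and 52.4% of Ighv counts in B-1a TET2-KO libraries 1 to 4 and 2.92, 3.38, 43.2 and 33.1% in WT libraries 1 to 4. With these genes left out of the total, the member share was 21.1, 54.8, 39.9 and 20.5% in TET2-KO libraries and 45.6, 61.2, 50.2 and 54.6% in WT libraries, a difference of -18.9 points. TET2-KO library 2, with a low share of all Ighv counts, then lay above WT libraries 1, 3 and 4. VH1 genes made up 55.0, 10.8, 43.8 and 37.9% of Ighv counts in TET2-KO libraries and 52.9, 37.5, 28.3 and 30.4% in WT libraries.

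**Figure D1:**
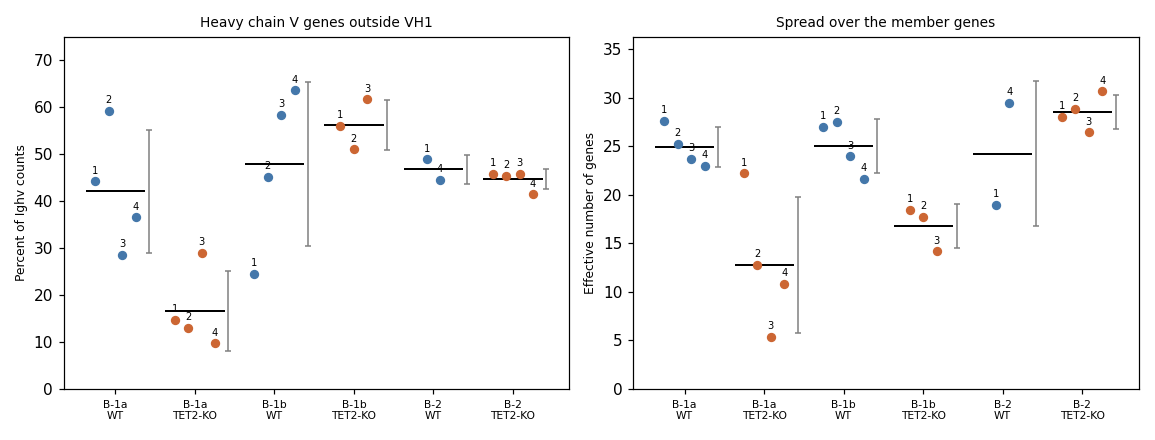
Left, percent of Ighv counts on the 89 heavy chain V genes outside VH1, and right, the effective number of these genes, by subset and genotype; each dot is 1 library (blue WT, orange TET2-KO) with its replicate number, the black line is the group mean and the grey bar its SD. B-1a TET2-KO libraries sit between 9.74 and 29.0% and B-1a WT libraries between 28.5 and 59.2%, while the 6 B-2 libraries sit between 41.4 and 48.9%.

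The counts were also spread over fewer members. The effective number of genes, the number of equally used genes that would give the same Shannon entropy, was computed from 1332 member counts drawn per library. It was 27.6, 25.2, 23.7 and 23.0 in B-1a WT libraries 1 to 4 and 22.2, 12.8, 5.41 and 10.8 in TET2-KO libraries 1 to 4. The groups did not overlap, though TET2-KO 1 lay close to WT 4, and the difference of means without WT 1 and WT 2 was -10.5. The leading gene differed between TET2-KO libraries. Ighv6-3 held 12.8 and 38.1% of member counts in TET2-KO 1 and 2, Ighv5-17 held 62.2% in TET2-KO 3, and Ighv8-4 held 41.1% in TET2-KO 4, whereas the leading gene held 9.89 to 18.6% in WT libraries.

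By family, VH14, a family of 4 functional genes, was at 3.82, 4.56, 1.93 and 2.86% of Ighv counts in B-1a WT libraries 1 to 4 and at 0.385, 0.405, 0.247 and 0.358% in TET2-KO libraries. Every TET2-KO value was below every WT value. VH9 was at 6.03, 4.73, 2.98 and 3.48% in WT and 1.54, 0.605, 0.692 and 0.395% in TET2-KO libraries, likewise without overlap. VH10 was at 3.07, 8.32, 1.78 and 1.91% in WT and 1.00, 0.563, 0.305 and 0.439% in TET2-KO libraries. Together with VH2, VH3, VH13 and VH15, 7 of the 15 families lay lower in TET2-KO libraries without overlap. Each gave the smallest p that 4 against 4 libraries allow in a two-sided exact permutation test, 0.0286, and an adjusted p of 0.0612 over the 15 families, so 0 families passed. Without WT 1 and WT 2, these 7 and VH11 lay lower without overlap, and VH14 differed by -2.05 points. VH5 was at 11.8, 10.3, 7.19 and 14.2% in WT and at 3.27, 1.55, 19.2 and 1.64% in TET2-KO libraries. Its groups overlapped through TET2-KO 3 alone, in which Ighv5-17 held 18.1% of Ighv counts. VH6 (4.17 to 10.4% in WT and 1.05 to 5.73% in TET2-KO libraries) also overlapped.

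**Figure D2:**
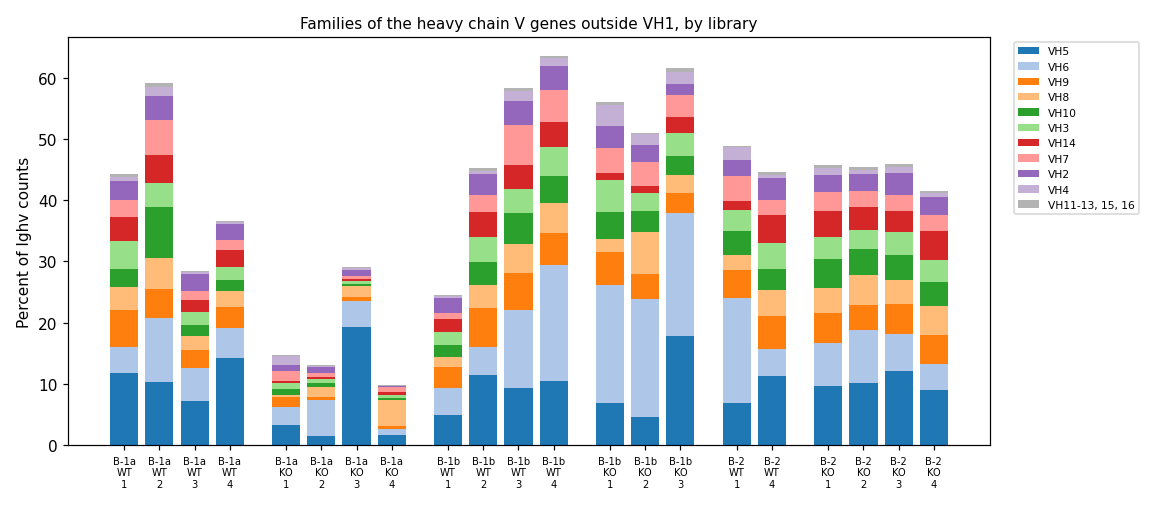
Percent of Ighv counts on each VH family outside VH1, stacked, with 1 bar per library and KO for TET2-KO. The bars of B-1a TET2-KO libraries are low, with VH5 as most of TET2-KO 3, VH6 as a large part of TET2-KO 2 and VH8 of TET2-KO 4, and VH6 makes up 19.2 to 20.1% in the 3 B-1b TET2-KO libraries.

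Gene by gene, no member passed the test in B-1a cells. The low-count filter, which a gene passes when it is counted in either group, left 45 of the 89 members. In edgeR's quasi-likelihood test 0 of these had an adjusted p under 0.05, where 0.0503% of the 13923 genes tested did, and 30 had an unadjusted p under 0.05, as did 7.85% of all genes; DESeq2 called 19 members, against 0.486% of the genes it tested. Without B-1a TET2-KO 1, edgeR called 1 member (0.0345% of all genes). The log2 fold change was below 0 for 41 of the 45, with a median of -2.30, against 0.02 over all genes tested, -2.93 over VH1 genes and -2.37 over kappa chain V genes. In 24 members every TET2-KO library was below every WT library in CPM, where 3.38% of all genes tested were, and in 0 members every TET2-KO library was above (2.18%). Without WT 1 and WT 2, 21 of 46 members had an unadjusted p under 0.05 (3.16% of all genes), 0 passed, and the median was -1.87.

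The 3 members with the smallest p were Ighv5-6, Ighv14-3 and Ighv8-8. Ighv5-6, a proximal gene, was at 41.6, 27.3, 34.6 and 31.3 CPM in WT and 5.73, 1.17, 1.27 and 0.911 CPM in TET2-KO libraries. Its log2 fold change was -3.87 (SE 0.56, edgeR adjusted p = 0.0714), and -3.86 without WT 1 and WT 2. Ighv8-8, a distal gene, was at 36.9, 62.7, 18.6 and 19.7 CPM in WT and 2.14, 4.82, 1.73 and 0.399 CPM in TET2-KO libraries (log2 fold change -3.89, SE 0.65, edgeR adjusted p = 0.0888). Ighv14-3 was at 17.8, 27.0, 6.71 and 8.90 CPM in WT and 2.64, 2.16, 2.24 and 1.54 CPM in TET2-KO libraries (log2 fold change -2.77, SE 0.44, edgeR adjusted p = 0.0888). None of these groups overlapped, but WT 1 and WT 2 were the higher WT libraries for Ighv14-3 and Ighv8-8, whose log2 fold changes without them were -1.85 and -3.07.

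Members did not move alike. Ighv9-3 was at 4.38, 3.67, 2.60 and 2.67% of Ighv counts in B-1a WT libraries and 0.968, 0.544, 0.542 and 0.249% in TET2-KO libraries, without overlap (log2 fold change in CPM -2.72, SE 0.55, edgeR adjusted p = 0.137). Ighv6-3, the highest member over all libraries, was at 2.59, 6.09, 2.40 and 2.97% in WT and 1.88, 4.96, 1.35 and 0.307% in TET2-KO libraries, which overlapped (log2 fold change -0.75, SE 0.86). Ighv5-17 was at 3.47, 3.77, 3.18 and 1.32% in WT libraries. In TET2-KO libraries it was at 0.298, 0.102, 18.1 and 0.102%, so that 3 libraries lay below every WT library and TET2-KO 3 above all of them (log2 fold change 0.28, SE 1.42). Without Ighv5-17 the member share of TET2-KO 3 was 13.4% and the difference in member share between genotypes -27.8 points. Ighv5-2 was at 0.307, 0.399, 0.217 and 0.278% in WT and 1.32, 0.172, 0.0975 and 0.0293% in TET2-KO libraries (log2 fold change 0.29, SE 0.99). Ighv8-4 was at 4.01% in TET2-KO 4 and at no more than 0.204% in the other 7 B-1a libraries.

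**Figure D3:**
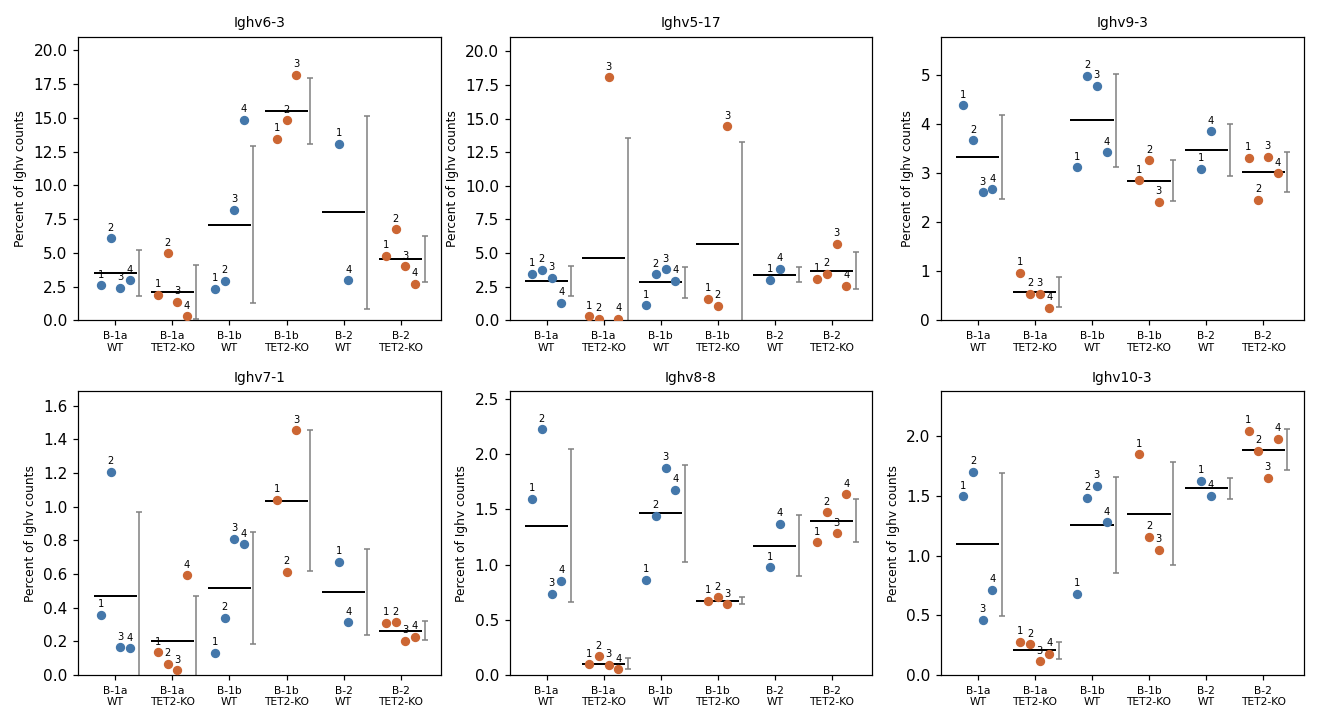
Percent of Ighv counts on Ighv6-3, Ighv5-17, Ighv9-3, Ighv7-1, Ighv8-8 and Ighv10-3, each panel with its own axis; each dot is 1 library with its replicate number (blue WT, orange TET2-KO), the black line the group mean and the grey bar its SD, cut at 0. Ighv9-3, Ighv8-8 and Ighv10-3 are low in all 4 B-1a TET2-KO libraries. Ighv6-3 is high in all 3 B-1b TET2-KO libraries, and also in B-1b WT 4 (14.9%) and B-2 WT 1 (13.1%). Ighv5-17 stands out in the libraries numbered 3 of both TET2-KO B-1 subsets.

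In B-1b cells the total did not separate the genotypes. Members made up 24.6, 45.2, 58.4 and 63.5% of Ighv counts in B-1b WT libraries 1 to 4 and 56.0, 51.0 and 61.6% in TET2-KO libraries 1 to 3. The difference of means was 8.30 points with all libraries and -4.75 points without WT 1 and WT 2, and 0.504 points without WT 1 alone, in which Ighv11-2 and Ighv12-3 held 54.3%. The effective number of genes was 27.0, 27.5, 24.0 and 21.6 in WT and 18.4, 17.7 and 14.2 in TET2-KO libraries, without overlap, and without WT 1 and WT 2 the means were 22.8 in WT and 16.8 in TET2-KO libraries. In each of the 3 TET2-KO libraries Ighv6-3 led, with 24.0, 29.0 and 29.5% of member counts.

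VH6 was at 4.40, 4.58, 12.8 and 18.9% of Ighv counts in B-1b WT libraries and at 19.2, 19.2 and 20.1% in TET2-KO libraries, just without overlap (two-sided exact permutation test, p = 0.0571, the smallest that 4 against 3 allow; adjusted p = 0.429). The difference of means was 9.33 points, and 3.63 points without WT 1 and WT 2. VH4, which has 1 functional gene, Ighv4-1, was also higher without overlap, at 0.352 to 1.72% in WT and 1.76 to 3.36% in TET2-KO libraries. VH14 was at 2.10, 4.06, 3.99 and 4.05% in WT and 1.22, 1.11 and 2.63% in TET2-KO libraries. The highest TET2-KO value lay above WT 1 only. None of the 15 families could pass at this number of libraries.

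Of the 49 members tested in B-1b cells, edgeR called 0 (0% of 14368 genes tested), 16 had an unadjusted p under 0.05 (5.48% of all genes), and DESeq2 called 5 (0.143% of its genes). The median log2 fold change was -0.22, against -0.01 over all genes, -0.81 over VH1 genes and -0.82 over kappa chain V genes. Without WT 1 and WT 2, 13 of 53 members had an unadjusted p under 0.05 (2.32% of all genes) and the median was -0.35. In 11 members every TET2-KO library was below every WT library (3.94% of all genes) and in 2 above (3.74%). The smallest p belonged to Ighv8-8, which was at 34.6, 34.7, 39.6 and 37.7 CPM in WT and 14.3, 15.7 and 13.1 CPM in TET2-KO libraries (log2 fold change -1.32, SE 0.17, edgeR adjusted p = 0.176). Ighv14-2 was at 48.2, 48.5, 43.5 and 46.9 CPM in WT and 17.2, 14.1 and 7.70 CPM in TET2-KO libraries (log2 fold change -1.83, SE 0.25, edgeR adjusted p = 0.176). Ighv5-6 followed with a log2 fold change of -2.24 (SE 0.31, edgeR adjusted p = 0.176). With WT 3 and WT 4 as the only WT libraries, Ighv8-8 was at -1.42, Ighv14-2 at -1.80 and Ighv5-6 at -1.77 on the log2 scale. Ighv5-17 was at 1.59 and 1.08% of Ighv counts in TET2-KO 1 and 2, 14.4% in TET2-KO 3, and 1.12 to 3.80% in WT libraries. The libraries numbered 3 were thus the highest TET2-KO libraries for this gene in B-1a, B-1b and, at 5.67%, B-2 cells.

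Whether the genotype difference itself differed between B-1a and B-1b cells was tested as an interaction over both subsets. Of 53 members tested, edgeR called 0 (0% of 15972 genes tested), 25 had an unadjusted p under 0.05 (1.57% of all genes), and DESeq2 called 0 (0.00241% of its genes). The B-1a effect was the lower for 48 of the 53, with a median of -1.97 on the log2 scale, against 0.03 over all genes. It was also the lower for 47 of 55 VH1 genes (median -1.95) and for 95 of 112 kappa chain V genes (median -1.60). The smallest p were those of Ighv10-3 (-2.59), Ighv8-8 (-2.58) and Ighv13-2 (-3.17), each with an edgeR adjusted p of 1.00. Without WT 1 and WT 2, 5 members had an unadjusted p under 0.05 (1.01% of all genes), the median was -1.49, and the values of these 3 genes were -1.62, -1.66 and -1.60.

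B-2 cells had 2 WT libraries, of which WT 1 had little Fcer2a. Members made up 48.9 and 44.6% of Ighv counts in WT 1 and 4 and 45.8, 45.4, 45.9 and 41.4% in TET2-KO libraries 1 to 4, a difference of -2.11 points, or 0.0558 points without WT 1. Of 51 members tested, edgeR called 0 (0% of 19786 genes tested), 9 had an unadjusted p under 0.05 (8.86% of all genes), and DESeq2 called 1 (0.375% of its genes). Leaving out WT 1 or WT 4 leaves 1 WT library, which is assumed to vary as the TET2-KO libraries do. Calls from those fits are not given. In 5 members every TET2-KO library was below both WT libraries (7.26% of all genes) and in 2 above (12.7%). The median log2 fold change was -0.55, against 0.18 over all genes, and -0.20 against 0.20 without WT 1. The smallest p were those of Ighv2-3, Ighv8-4 and Ighv7-1, each with an edgeR adjusted p of 0.531. Without WT 1 the log2 fold changes of Ighv2-3 and Ighv7-1 were -0.84 and -0.46. Ighv8-4 was at 18.4 and 0.614 CPM in WT 1 and 4 and at 0.358, 0.563, 1.50 and 0.873 CPM in TET2-KO libraries. Its log2 fold change of -3.47 rested on WT 1 and was 0.44 without it. With 4 against 2 libraries an exact permutation test cannot go below 0.133.

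Subsets were compared among the 11 TET2-KO libraries, whose Cd5 and Fcer2a followed their labels. The member shares of B-1a and B-2 libraries did not overlap, 9.74 to 29.0% in B-1a and 41.4 to 45.9% in B-2 libraries, nor did the effective numbers, 5.41 to 22.2 in B-1a and 26.4 to 30.7 in B-2 libraries. With Ighv11-2 and Ighv12-3 left out of the total, the member shares overlapped, at 20.5 to 54.8% in B-1a and 42.4 to 48.2% in B-2 libraries, and the difference of means went from -28.0 to -12.3 points. Of 15 families, 9 were lower in B-1a cells (VH2, VH3, VH7, VH9, VH10, VH11, VH13, VH14 and VH15), each without overlap (two-sided exact permutation test, p = 0.0286, adjusted p = 0.0476 over the 15 families). That p is the smallest that 4 against 4 libraries allow, so the adjusted p depends on how many families reach it. Between genotypes in B-1a cells, the 7 families at the same p had an adjusted p of 0.0612 in this test. VH11 and VH15, whose few counts are given below, are among the 9 on which the passing of all rests. With any of the 8 B-1a and B-2 TET2-KO libraries left out, 0 families passed, since 4 against 3 libraries cannot. All family shares, here and between genotypes, keep Ighv11-2 and Ighv12-3 in the total. The families were not tested with these genes left out, so the family result holds for that total only. VH14 was at 4.26, 3.79, 3.42 and 4.77% of Ighv counts in B-2 TET2-KO libraries 1 to 4. VH11, whose remaining gene is Ighv11-1, was at 0.0391 to 0.0541% there and 0 to 0.0225% in B-1a libraries. Few counts lie behind VH11, with 11, 7, 12 and 5 in B-2 and 8, 3, 6 and 0 in B-1a TET2-KO libraries 1 to 4. VH15 had 34, 22, 36 and 7 counts in B-2 and 0, 6, 1 and 0 in B-1a libraries. VH4, VH5, VH6, VH8, VH12 and VH16 overlapped.

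Of the 50 members tested between B-1a and B-2 TET2-KO libraries, edgeR called 9, all lower in B-1a cells. The background was 5.82% of 18555 genes in either direction and 2.57% lower. In the same fit edgeR called 20 of 52 VH1 genes, 19 of them lower, and 49 of 110 kappa chain V genes, 46 of them lower. An unadjusted p under 0.05 was found for 22 members and 24.7% of all genes. Without B-1a TET2-KO 1 edgeR called 15 members (4.91% of all genes). Without B-1b TET2-KO 3, which shares in the estimate of the spread, it called 14 (9.43% of all genes). The median log2 difference was -1.55 over the members, -0.05 over all genes and -2.48 over VH1 genes. In 17 members every B-1a library was below every B-2 library (10.1% of all genes) and in 0 above (8.96%). The 9 were the 4 VH14 genes with Ighv9-2, Ighv8-8, Ighv5-6, Ighv10-3 and Ighv5-4, the last named because it completes the count.

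Ighv14-1 and Ighv14-4 had the largest of these 9 differences. Ighv14-1 was at 0.378, 0.618, 0 and 0 CPM in B-1a and 7.65, 5.70, 7.52 and 4.43 CPM in B-2 libraries (log2 difference -4.67, SE 0.92, edgeR adjusted p = 0.00605). The B-1a counts behind it were 6, 10, 0 and 0. Ighv14-4 was at 0.252, 0.865, 1.44 and 0 CPM in B-1a and 14.1, 9.29, 12.5 and 5.44 CPM in B-2 libraries (log2 difference -4.03, SE 0.99, edgeR adjusted p = 0.0349). Ighv14-2 (-2.51, edgeR adjusted p = 0.0145) and Ighv14-3 (-2.07, edgeR adjusted p = 0.00735) were smaller. Ighv8-8 was at 2.14, 4.82, 1.73 and 0.399 CPM in B-1a and 15.5, 18.2, 21.2 and 10.1 CPM in B-2 libraries (log2 difference -2.87, SE 0.49, edgeR adjusted p = 0.0021). Ighv10-3 was at 6.17, 7.29, 2.19 and 1.37 CPM in B-1a and 26.4, 23.3, 27.2 and 12.3 CPM in B-2 libraries (log2 difference -2.42, SE 0.45, edgeR adjusted p = 0.00475). Ighv5-6 differed by -2.57 (SE 0.53, edgeR adjusted p = 0.00807) and Ighv9-2 by -3.52 (SE 0.92, edgeR adjusted p = 0.0347). The groups did not overlap for any of these genes. The calls of Ighv14-4 and Ighv9-2 did not hold with every library left out in turn: Ighv14-4 was lost without B-1a TET2-KO 1 or 2, B-1b TET2-KO 2, or B-2 TET2-KO 1 or 2 (edgeR adjusted p 0.0593 to 0.0938), and Ighv9-2 without B-1a TET2-KO 2 or 3, B-1b TET2-KO 2, or B-2 TET2-KO 1, 2 or 3 (0.0513 to 0.0932).

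Between B-1b and B-2 TET2-KO libraries edgeR called 1 of 50 members, Ighv7-1, the gene of the S107 family that encodes the T15 antibody to phosphorylcholine (background 2.15% in either direction and 1.52% higher). Ighv7-1 was at 22.2, 13.8 and 29.8 CPM in B-1b and 4.00, 3.87, 3.38 and 1.41 CPM in B-2 libraries (log2 difference 2.75, SE 0.54, edgeR adjusted p = 0.0133). The call was lost without B-2 TET2-KO 2 (edgeR adjusted p = 0.0519) or B-1b TET2-KO 3 (0.0633). Without B-1a TET2-KO 4, 3 members were called, and 4.16% of all genes. Over the members, 9 of 50 had an unadjusted p under 0.05, a share near the 19.6% of all genes, and the median log2 difference was 0.66, against -0.41 over VH1 genes. In 9 members every B-1b library was above every B-2 library (8.04% of all genes) and in 3 below (11.3%). Ighv6-3 was one of the 9, at 286, 332 and 374 CPM in B-1b and 61.9, 83.5, 66.1 and 16.7 CPM in B-2 libraries (log2 difference 2.50, SE 0.98, edgeR adjusted p = 0.212). VH6 was at 19.2, 19.2 and 20.1% of Ighv counts in B-1b and 6.97, 8.73, 6.13 and 4.39% in B-2 libraries. VH4, VH6 and VH7 were higher and VH14 lower in B-1b cells without overlap (two-sided exact permutation test, p = 0.0571, the smallest possible, adjusted p = 0.214).

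Between B-1a and B-1b TET2-KO libraries edgeR called 3 of 50 members, all lower in B-1a cells, against a background of 0.205% in either direction and 0.194% lower, and 35 members had an unadjusted p under 0.05 (5.78% of all genes). They were Ighv7-1 (log2 difference -3.12, SE 0.55, edgeR adjusted p = 0.0294), Ighv10-3 (-2.76, SE 0.47, edgeR adjusted p = 0.0294) and Ighv8-8 (-2.65, SE 0.51, edgeR adjusted p = 0.0497). Ighv7-1 was at 3.02, 1.85, 0.518 and 4.61 CPM in B-1a and Ighv10-3 at 39.4, 25.9 and 21.5 CPM in B-1b libraries, and neither overlapped with the other subset. The median log2 difference was -2.31, and in 26 members every B-1a library was below every B-1b library (3.07% of all genes), in 0 above (2.98%). None of the 3 calls held with every library left out in turn, and the count ranged from 0 to 6. It was 6 without B-1a TET2-KO 1 (0.311% of all genes) and 5 without B-1a TET2-KO 4 (0.233%). Ighv8-8 was lost without any library except B-1a TET2-KO 2 or 4 (edgeR adjusted p 0.0787 to 0.245 where lost). Ighv7-1 was lost without B-1a TET2-KO 2, B-1b TET2-KO 1 or 3, or B-2 TET2-KO 1, 2 or 3 (0.0558 to 0.107). Ighv10-3 was lost without B-1a TET2-KO 3, any B-1b library or B-2 TET2-KO 2 (0.0569 to 0.181). Of the families, 10 did not overlap, all lower in B-1a cells, and 0 passed (two-sided exact permutation test, p = 0.0571, adjusted p = 0.0857). The 3 subset comparisons share the same libraries.

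Position in the locus was set beside the counts and the differences. Of member counts, the 45 members nearest the D genes held 45.9, 35.7, 44.2 and 53.9% in B-1a WT libraries and 45.0, 25.2, 72.6 and 32.3% in TET2-KO libraries, where the 72.6% of TET2-KO 3 included Ighv5-17. They held 40.1, 44.8, 33.4 and 31.7% in B-1b WT and 21.8 to 41.3% in B-1b TET2-KO libraries. In B-2 cells they held 28.5 and 46.2% in WT and 39.4, 40.0, 45.0 and 42.9% in TET2-KO libraries. The genotypes overlapped in every subset. Across the 58 functional members of a library, which share that library's depth, Spearman's rho between the start position and counts per length lay between -0.214 and -0.0091. Between start position and log2 fold change it was 0.168 over 45 functional members for genotype in B-1a cells, 0.233 over 48 in B-1b cells and -0.0252 over 49 between B-1a and B-2 TET2-KO libraries. These values are descriptions across genes, which are not replicates.

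**Figure D4:**
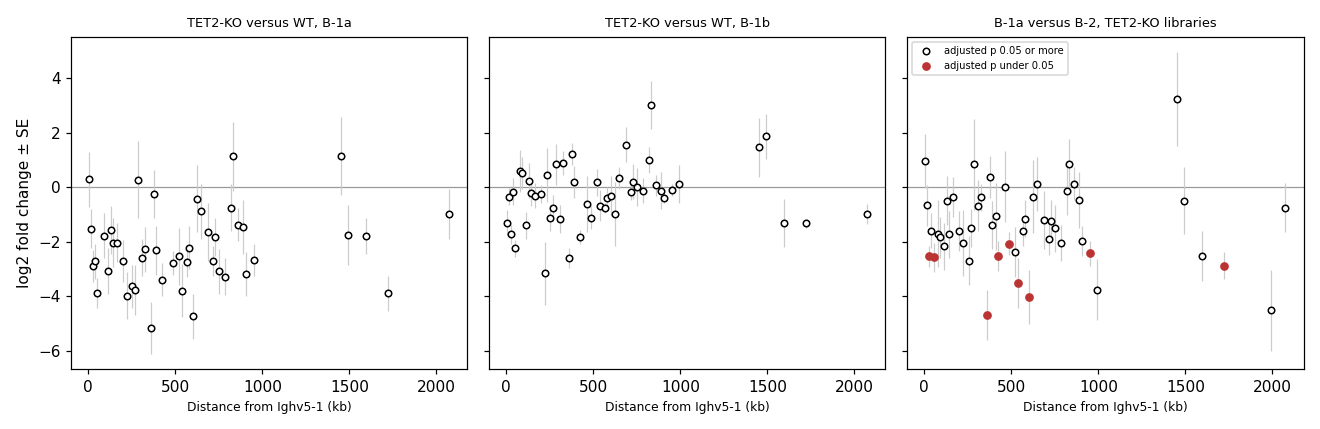
Log2 fold change ± SE of each member tested (edgeR) against its distance in kb from Ighv5-1, the member nearest the D genes, for TET2-KO versus WT in B-1a and B-1b cells and for B-1a versus B-2 cells among TET2-KO libraries; red points have an adjusted p under 0.05. In B-1a cells 41 of 45 points lie below 0, from proximal to distal members, and the 9 red points in the right panel include both.

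Genes that V gene expression works through were taken as a list of transcription factors and receptor components, of which 17 were tested in each comparison. None was called between genotypes in any subset, in the interaction or between B-1a and B-1b TET2-KO libraries. In the genotype comparisons the median log2 fold change over the list was -0.29 in B-1a, -0.19 in B-1b and -0.36 in B-2 cells. Between B-1a and B-2 TET2-KO libraries, Jchain (2.25), which joins IgM into polymers, and Prdm1 (1.93), a factor of antibody secretion, were higher in B-1a cells on the log2 scale. Ighd (-2.61), the constant region of IgD, and Irf8 (-1.43), a B cell transcription factor, were lower. In B-1b against B-2 libraries Jchain (3.88) was higher and Ighd (-2.26) lower. The gate took IgD-lo cells as B-1 cells.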

How the data were processed

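The authors deposited raw counts, fragments per gene for each of 21 libraries, without normalization. Per the file headers they were made with featureCounts 1.6.1 on GENCODE vM32, paired and unstranded, so a gene and an antisense or overlapping gene cannot be told apart, and the command has no option to count fragments that align to several places. Per the submitters' processing notes, fastp and STAR on GRCm39 were used (versions not given in the sources used here). Functional members had a nearest Ighv gene with 75.1 to 98.7% identity over the V exon (median 94.9%), so counts of near-identical genes are uncertain. Columns were matched to symbols by gene ID with a later GENCODE annotation of the same build. It named 56310 IDs and left 643 without a symbol, and all 89 members had the same start and end in both annotations. In no pair of libraries were the counts identical.

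The count test was edgeR's robust quasi-likelihood test (edgeR 4.0.16, R 4.3.3, limma 3.58.1) after TMM scaling and filterByExpr by group, with p-values adjusted by Benjamini-Hochberg over every gene tested and a threshold of 0.05. Genotypes were fitted within each subset, the interaction over B-1a and B-1b libraries, and subsets over the 11 TET2-KO libraries. Family shares were compared with a two-sided exact permutation test, adjusted over the 15 families. On simulated data with the layout of B-1a genotypes (13390 genes), 22.9% of 2-fold and 70.5% of 4-fold changes were called, with 10 false calls. With the layout of B-1a against B-2 (17401 genes), 17.0 and 48.9% were called, with 0 false calls. The changed genes were drawn at random from all genes passing the filter, not from the members. These rates therefore do not apply to the members, for which recovery was not tested. Motifs and sequences were read from the GRCm39 genome.

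Members and lists were chosen with earlier results of these data known. Named genes are the 10 highest members, the highest per group and family, and members known from the literature. They include up to 5 called members per direction and comparison or, with none called, the 3 with the smallest p. Also named are the members nearest to and farthest from the D genes, and members over 10% of Ighv counts in a library. Alternatives were DESeq2 1.42.0, RLE scaling, other filters, counts per length, a replicate block and each library left out. V-D-J joins and CDR3 sequences need the reads and were not analysed here.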

Additional observations from a re-analysis of the deposited data

Results flagged for a closer look

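In 12 of the 109 groups of 4 libraries tested, the highest or lowest library lay far from the other 3 relative to the group's range. Independent, normally distributed values would give about 1 in 20. The groups here share genes, libraries and a total, so their number cannot be compared with that rate. In B-1a TET2-KO libraries, TET2-KO 3 had 18.1% of Ighv counts on Ighv5-17 against 0.102 to 0.298% in the others, and 19.2% on VH5 against 1.55 to 3.27%. The same library had 2.96% on Ighv6-6 against 0.696 to 1.06%. B-1a TET2-KO 4 had 0.168% on VH2 against 0.942 to 0.978%, and B-1a TET2-KO 1 had 0.00563% on VH12, which is 2 counts, against 0. In B-1a WT libraries, WT 2 had 6.62% on Ighv10-1 against 1.20 to 1.57% and 6.09% on Ighv6-3 against 2.40 to 2.97%. In B-1b WT libraries, WT 1 had 2.10% on VH14 against 3.99 to 4.06% and 1.20% on Ighv14-2 against 2.01 to 2.08%. In B-2 TET2-KO libraries, the member share was 41.4% in TET2-KO 4 against 45.4 to 45.9%, VH2 was at 3.58% in TET2-KO 3 against 2.82 to 2.88%, and VH16 was at 0.00568%, which is 1 count, in TET2-KO 2 against 0.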

How the results depend on the processing

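Counts of members called moved with the filter and the tool, and the cause was not tested. Without a low-count filter, the count rose from 0 to 15 for genotype in B-1a cells, to 9 in B-1b, to 5 in B-2 cells and to 26 for the interaction, from 1 to 3 for B-1b against B-2 and from 3 to 11 for B-1a against B-1b TET2-KO libraries. Of all genes, 318 of 38366 were then called in B-1a cells, and 0.36, 0.386, 0.345, 1.94 and 0.275% in the other comparisons in this order. With at least 10 counts in every library, the count of members was 0 for B-1b against B-2 (3.7% of all genes) and 1 for B-1a against B-1b (0.358%). For genotype, DESeq2 called 19 members in B-1a, 5 in B-1b and 1 in B-2 cells, and it called 22, 6 and 17 for B-1a against B-2, B-1b against B-2 and B-1a against B-1b, where it called 7.86, 6.42 and 0.313% of all genes.

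With the replicate number as a block, 6 members were called for genotype in B-1a cells (0.345% of all genes), among them Ighv5-6 and Ighv8-8 (edgeR adjusted p = 0.0182). The block gave 19 members for B-1a against B-2 (8.83% of all genes) and 2 for B-1b against B-2 (3.59%). For B-1a against B-1b it gave 8 (0.555%), and Ighv7-1 was lost (edgeR adjusted p = 0.0619). The labels do not say whether the numbers pair libraries, so the main tests treated libraries as separate, and pairing was not tested. Same-numbered TET2-KO libraries of different subsets correlated at -0.109 to 0.217 in their deviations from group means, with 4 of 10 pairs over 0.1. In 12 of 20 cases a TET2-KO library correlated best with its own number, out of the 3 or 4 libraries of another subset. The correlation was 0.197 to 0.578 between same-numbered WT libraries of different subsets and -0.142 to 0.362 between same-numbered TET2-KO and WT libraries of 1 subset.

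Leaving out 1 library at a time, the count was 0 to 1 for genotype in B-1a cells (0 to 0.0415% of all genes) and 0 in B-1b cells. In B-2 cells it was 0 with a TET2-KO library left out. Between subsets it was 7 to 15 for B-1a against B-2 (3.57 to 9.43% of all genes) and 0 to 3 for B-1b against B-2 (1.04 to 4.16%). For B-1a against B-1b it was 0 to 6 (0.0709 to 0.311%). The count of families for B-1a against B-2 was 0 to 0. The difference in member share in B-1b cells was -4.75 points without WT 1 and WT 2. Ighv8-4 in B-2 cells changed direction without WT 1, to 0.44, and was -4.41 without WT 4. As alternatives chosen after seeing the data, leaving Ighv11-2 and Ighv12-3 out of the total gave -10.5 points for genotype in B-2 cells, -12.3 for B-1a against B-2 and 21.9 for B-1b against B-2. The -10.5 points rested on B-2 WT 1, at 68.3% against 45.5% in WT 4 and 42.4 to 48.2% in B-2 TET2-KO libraries. The other values were those of single genes and, with counts pooled over libraries, the numbers of families lower in the first group. Of these, 351 kept their direction and their side of the threshold, or, for the families, moved by less than 1.5 times. A further 24 passed the threshold and 34 lost it. Of counts and shares, 264 moved by less than the spread between libraries, or less than 1.5 times, and 46 by more. Depth limits the lowest members: 38 had at most 30 counts in every library, and B-1a TET2-KO 4 held 1332 member counts.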
